A study of Drosophila melanogaster with 22 samples.

Results

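The genes described here are the Hsp70 and Hsp90 chaperones of the fly, 10 of the 17101 genes in the count tables, chosen by family and name and read in all 22 libraries. They are the 5 near-identical heat-inducible copies Hsp70Aa (FBgn0013275), Hsp70Ab (FBgn0013276), Hsp70Ba (FBgn0013277), Hsp70Bb (FBgn0013278) and Hsp70Bc (FBgn0013279), the related inducible gene Hsp68 (FBgn0001230), the cytosolic Hsp90 gene Hsp83 (FBgn0001233), and the cognates Hsc70-3 (FBgn0001218), Hsc70-4 (FBgn0266599) and Hsc70-5 (FBgn0001220). Hsp70 proteins bind unfolded stretches of other proteins and let go of them in a cycle driven by ATP, with J-domain proteins and nucleotide exchange factors as helpers. Hsp90 acts later, on kinases, receptors and other clients that are close to their final fold. In flies the Hsp70 copies and Hsp68 are transcribed when heat shock factor is activated and are close to silent otherwise, Hsp83 is expressed at all times and induced further by heat, and the cognates serve unstressed cells, Hsc70-4 in the cytosol, Hsc70-3 (the fly BiP) in the endoplasmic reticulum and Hsc70-5 (the fly mortalin) in mitochondria.

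All libraries came from heads of virgin females aged 1 day and reared at 25 °C, with 100 heads pooled per replicate. Exp 1 held 3 samples of w1118, an isogenic laboratory strain, and Exp 2 held 4 samples of w1118 and 4 of RluA-2, flies homozygous for the allele RluA-2 del-FRT, a deletion of the whole locus of a predicted pseudouridine synthase. The polyA RNA of each sample was divided into a pair of libraries, of which one was treated with CMC, a carbodiimide that stays on pseudouridine and stops reverse transcription beside it, and the other was mock treated. Gene counts, and for each position the coverage and the number of inserts ending at it (terminations), were read from the files. Gene counts scaled to a library total of 1000000 are given as CPM, and the terminations in a gene's span, scaled to 1000000 genome terminations of the library, as termination CPM.

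Total gene counts ran from 12035142 to 30701799 per library. The first kb of the RluA-2 gene was counted here from the lowest coordinate of its span. Beyond it, the gene had 415 CMC terminations over the 4 w1118 samples of Exp 2 and 2 over the 4 RluA-2 samples. Within the first kb it had 70 and 106. What the terminations there come from in the RluA-2 samples was not tested. Photoreceptor markers (ninaE, trp, Arr2, ninaC, chp) summed to between 28085 and 37608 termination CPM in the labelled heads. Since these are bulk samples, fewer cells of a type and less RNA per cell cannot be told apart. The labels do not say whether the replicates were reared apart, so the p-values measure the spread between these pools only.

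The 5 Hsp70 copies lie on chromosome 3R of genome release 6. Hsp70Aa (11954163 to 11956544, minus strand) and Hsp70Ab (11958535 to 11960909, plus strand) form a divergent pair, and Hsp70Ba (12465453 to 12467776, minus strand), Hsp70Bb (12505793 to 12508139, plus strand) and Hsp70Bc (12509076 to 12511461, plus strand) lie further along the arm, with a sixth copy, Hsp70Bbb (12502510 to 12504856, plus strand), which is not one of the 10 genes. Hsp68 (24055080 to 24057310, minus strand) and Hsc70-4 (15242687 to 15246614, plus strand) are on the same arm. Hsp83 is on 3L (3192969 to 3197059, plus strand), Hsc70-3 on X (11801696 to 11807117, minus strand) and Hsc70-5 on 2R (14252598 to 14256192, minus strand). Exons and untranslated regions were not used here, so a place within a gene is given as bases from the start of its span. The strand given for a gene is that with the most CMC terminations in its span over all pairs, and was not read from an annotation. It held between 99.998 and 100.0% of the terminations listed in a member's span.

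By gene counts, which leave out most inserts of the Hsp70 copies, the constitutive members stood above the inducible ones. Per kb of gene span, the CPM in mock w1118 libraries of Exp 2 was 534 ± 10.1 for Hsc70-4, 129 ± 22.1 for Hsp83, 76.2 ± 1.98 for Hsc70-5, 53.7 ± 3.04 for Hsc70-3 and 16.9 ± 2.18 for Hsp68 (SD, n = 4), and no 2 neighbours in this order overlapped. The span is not the length of the transcript. In CPM not divided by span, Hsc70-3 with 291 ± 16.5 and Hsc70-5 with 274 ± 7.11 stood in the other order and overlapped. Per kb of span Hsp70Ab stood at 0.308 ± 0.151 and Hsp70Bc at 0.247 ± 0.0992, and these 2 overlapped. Below them Hsp70Aa (0.0373 ± 0.0357), Hsp70Bb (0.0278 ± 0.0295) and Hsp70Ba (0.00701 ± 0.0140) overlapped one another. These last 3 copies rest on at most 5 counted inserts in any of the 4 libraries. By CMC terminations, not divided by span, the place of the Hsp70 copies summed differed between the experiments. In Exp 1 the Hsp70 copies summed had 471 ± 57.9 termination CPM, above Hsc70-3 with 296 ± 31.5 and Hsc70-5 with 204 ± 16.6 (SD, n = 3). In the gene counts of the same CMC libraries the sum was 15.1 ± 2.66 CPM, below both of these cognates. For w1118 of Exp 2 the sum had 88.4 ± 14.2 termination CPM (SD, n = 4). This was below the means of Hsc70-3 (294) and Hsc70-5 (270). In w1118 of Exp 2 Hsp70Aa had 50.5 ± 10.8 and Hsp68 41.2 ± 4.88 (SD, n = 4), with overlapping ranges, and both were below the cognates.

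**Figure D1:**
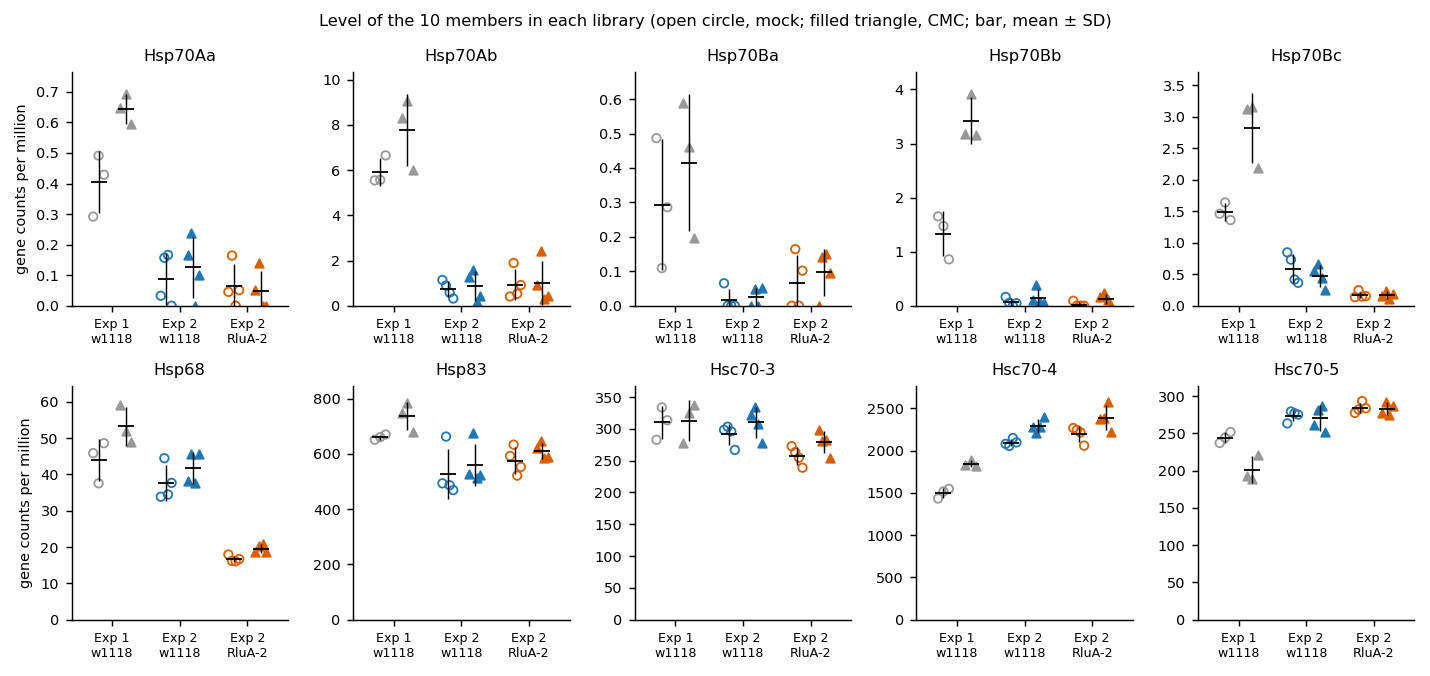
Gene counts of the 10 genes in CPM in each of the 22 libraries, with open circles for mock and filled triangles for CMC libraries, grouped by experiment and genotype, and black bars for the mean ± SD; each panel has its own axis from 0. Hsp68 lies between 16.1 and 20.9 in all RluA-2 libraries and between 33.9 and 59.2 in all w1118 libraries. In w1118 libraries of the same treatment, the 5 Hsp70 copies are higher in Exp 1 than in Exp 2.

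Hsp68, the inducible relative of the Hsp70 copies, was lower in RluA-2 than in w1118, and it was the one member called between the genotypes in gene counts that passed the filter on low counts. In mock libraries of Exp 2 its CPM was 33.9, 44.5, 34.5 and 37.7 in w1118 and 18.0, 16.2, 16.1 and 16.7 in RluA-2. The ranges were far apart, and the RluA-2 mean was 0.445 times that of w1118. The log2 fold change was -1.13 ± 0.09 (SE, adjusted p = 1.89e-06, edgeR), against a background in which 23.7% of the 10161 genes tested were called, and it ran from -1.18 to -1.04 with 1 library left out. The CMC libraries, made from the same RNA, gave 38.2, 45.7, 37.7 and 45.6 in w1118 and 18.5, 20.2, 20.9 and 18.7 in RluA-2, a log2 fold change of -1.08 ± 0.08 (SE, adjusted p = 5.75e-07), with 21.1% of genes called. The w1118 samples of Exp 1 were on the side of w1118 in Exp 2, at 45.9, 37.6 and 48.6 in mock libraries.

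The lower level of Hsp68 was also measured by CMC terminations, which fell from 41.2 ± 4.88 to 19.6 ± 1.20 termination CPM (SD, n = 4 each), a log2 fold change of -1.06 ± 0.09 (SE, adjusted p = 3.27e-07, with 20.6% of 10191 genes called). It was spread over the gene. With the span divided into 3 equal parts, the part at the 5′ end held 28.9% of the Hsp68 terminations in w1118 and 31.3% in RluA-2, and that at the 3′ end 35.0 and 31.4%.

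Of the other 9 members, 5 passed the filter on low counts in the comparison of the genotypes and none was called, in mock or in CMC libraries. With no filter all 10 members were tested and 2 were called in each, Hsp68 and Hsp70Bc, with 16.4% of genes called in mock and 14.8% in CMC libraries. Hsc70-3, the BiP of the endoplasmic reticulum, had a mock log2 fold change of -0.14 ± 0.05 (SE, adjusted p = 0.091), from 291 ± 16.5 to 257 ± 14.4 CPM, and it was called without w1118 replicate 4 (adjusted p = 0.0292) or with library totals in place of TMM (adjusted p = 0.0321). Hsc70-4, with 2096 ± 39.6 in w1118 and 2197 ± 93.9 in RluA-2, stood at 0.11 ± 0.05 (SE, adjusted p = 0.116), and was called without RluA-2 replicate 4 (adjusted p = 0.0453) and by DESeq2 (adjusted p = 0.0413). Hsc70-5 stood at 0.09 ± 0.04 (SE, adjusted p = 0.0994).

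Whether Hsp83 was called turned on 1 library. Its mock CPM in w1118 of Exp 2 was 493, 662, 486 and 469 and in RluA-2 592, 633, 521 and 552. Replicate 2 of w1118 lay above every RluA-2 library and the other 3 w1118 libraries below every one. The mock log2 fold change was 0.16 ± 0.10 (SE, adjusted p = 0.299) with all libraries and 0.29 ± 0.07 (SE, adjusted p = 0.0105) without that replicate. The CMC library of the same RNA was also the highest of its group, at 674 against 514 to 528 CPM.

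**Figure D2:**
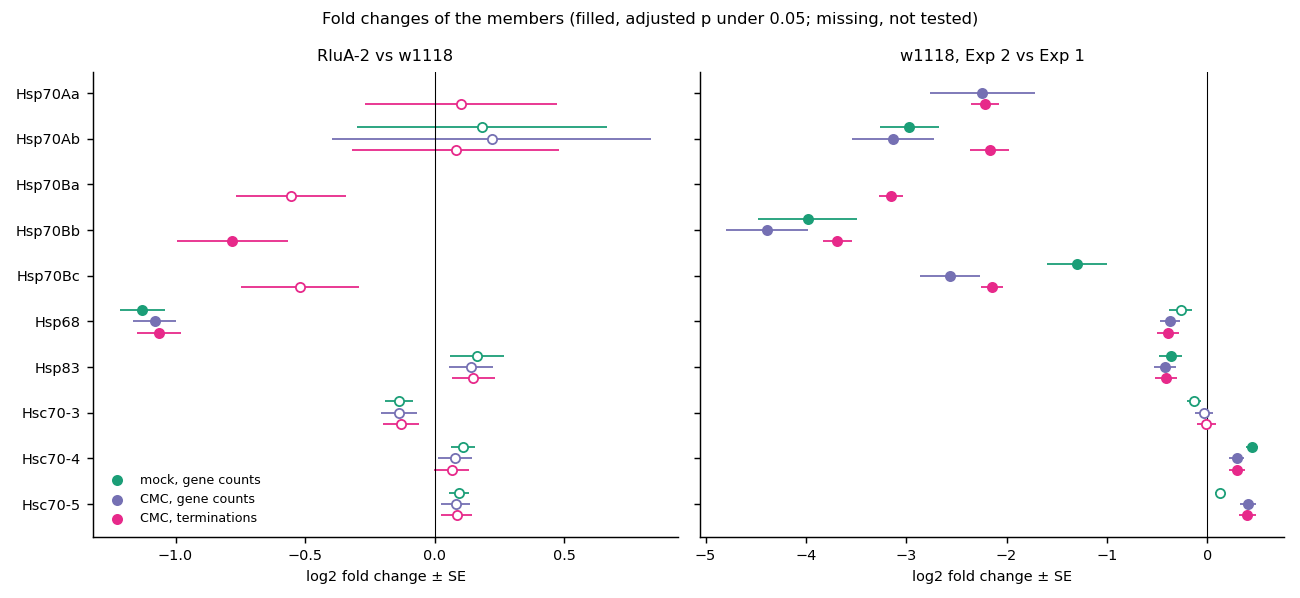
Log2 fold changes of the members with standard errors as bars, for RluA-2 against w1118 in Exp 2 on the left and for w1118 of Exp 2 against Exp 1 on the right, from mock gene counts, CMC gene counts and CMC terminations; filled points have an adjusted p under 0.05 and members without a point were not tested. Hsp68 stands near -1.1 by all 3 measures on the left, and the Hsp70 copies between -1.30 and -4.39 on the right.

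The gene counts of the 5 Hsp70 copies are incomplete, since the authors' counting left out inserts that match several places. Over the 11 CMC libraries the 5 copies together had 927 counted inserts and 30035 terminations in their spans, 32.4 terminations per count, whereas the other 5 members had between 0.829 and 0.900. The copies differed widely. Hsp70Aa had 380 terminations per count (16345 against 43), Hsp70Ba 105, Hsp70Bc 35.1, Hsp70Bb 16.5 and Hsp70Ab 3.05.

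Counts and terminations rank the copies in different orders. In Exp 1, Hsp70Ab took 51.6% of the counts of the 5 copies and 4.61% of their terminations, and Hsp70Aa 4.28% of the counts and 49.6% of the terminations. How inserts that match several copies were placed in the termination files is not given in the sources used here, so a value for 1 copy may hold RNA of another, and the 5 copies are therefore also given as a sum. The sum has limits too. It leaves out Hsp70Bbb, and an insert listed at several copies would enter it more than once. Terminations also fell in blocks along a copy. Hsp70Bb had none in 17 of its 24 bins of 100 bases in each of the 3 groups, where Hsp70Aa had some in all 24.

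**Figure D3:**
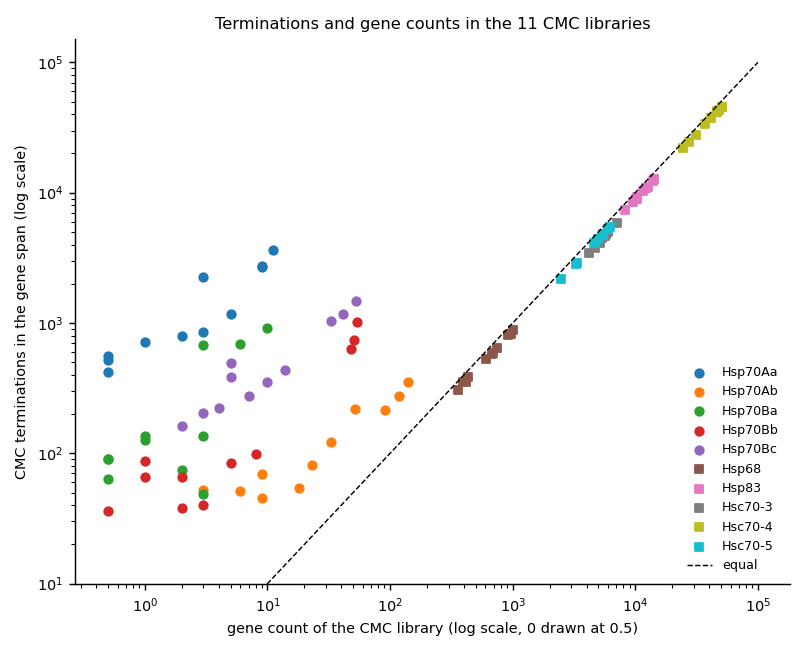
CMC terminations in the gene span (vertical, log scale) against the gene count (horizontal, log scale, a count of 0 drawn at 0.5) for the 10 genes in each of the 11 CMC libraries, with circles for the 5 Hsp70 copies, squares for the other members and a dashed line where both are equal. The 5 other members lie just under the line and every Hsp70 point lies above it, Hsp70Aa the furthest.

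The largest difference in the family was between the experiments. In mock libraries of w1118 the CPM of the 5 Hsp70 copies summed was 9.44, 9.28 and 9.58 in Exp 1 and 2.25, 1.83, 1.16 and 0.727 in Exp 2. All samples of Exp 1 lay above all samples of Exp 2, and the log2 fold change was -2.64 ± 0.27 (SE, adjusted p = 0.000134). With the filter on low counts, which called 32.8% of 10253 genes, Hsp70Aa and Hsp70Ba were not tested and Hsp70Bb passed through its Exp 1 libraries alone, so a count of the members that passed is no measure of the family. With no filter, which any gene with a count enters, 7 of all 10 members were called in mock libraries, against 22.1% of 14778 genes. All 5 copies were among them, with log2 fold changes of -3.98 for Hsp70Bb, -3.39 for Hsp70Ba, -2.96 for Hsp70Ab, -2.39 for Hsp70Aa and -1.30 for Hsp70Bc (adjusted p between 6.14e-06 and 0.0197). These fits of Hsp70Aa, Hsp70Ba and Hsp70Bb rest on at most 5 inserts in an Exp 2 library, so their sizes are loose. Among the others Hsp83 fell by 0.36, and Hsc70-4 rose by 0.44 ± 0.06 (SE, adjusted p = 0.000683).

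The CMC gene counts with no filter gave 9 of 10 members called, against 27.7% of genes (41.9% with the filter, which Hsp70Aa and Hsp70Bb also passed through Exp 1), and a log2 fold change of -3.18 ± 0.33 (SE, adjusted p = 4.91e-05) for the Hsp70 copies summed. The terminations gave 9 of 10, with a background of 42.4%. Terminations of the Hsp70 copies summed were 508, 500.4 and 404 termination CPM in Exp 1 and 91.4, 106, 72.5 and 83.2 in w1118 of Exp 2, a log2 fold change of -2.42 ± 0.13 (SE, adjusted p = 1.84e-07). The mock libraries also had more coverage in Exp 1. At the 15 positions of Hsp70Aa that are listed in all 11 pairs, it was 8.84 ± 1.73 in Exp 1, scaled as CPM (SD, n = 3) and 2.64 ± 0.47 in w1118 of Exp 2 (SD, n = 4). Which positions are listed depends on the CMC library of the pair.

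Other inducible members were closer between the experiments. Hsp68 in terminations fell by 0.39 (SE 0.11, adjusted p = 0.0119), and its mock count stood at -0.26 ± 0.11 (SE, adjusted p = 0.102), with a call when Exp 1 replicate 2 (adjusted p = 0.0277) or Exp 2 replicate 2 (adjusted p = 0.0322) was left out. Hsp83 fell by 0.41 in terminations (adjusted p = 0.0107), and its mock call at adjusted p = 0.0353 was lost when any 1 of the 7 libraries other than Exp 2 replicate 2 was left out (adjusted p between 0.0519 and 0.0941). Of the cognates Hsc70-5 rose by 0.40 in terminations (adjusted p = 0.00286) and stood at 0.12 in mock counts (adjusted p = 0.0879), and Hsc70-3 stood at -0.01 (adjusted p = 0.942). The ranges of CPM in Exp 1 and in w1118 of Exp 2 did not overlap for 7 of the 10 members in mock libraries, where this held for 30.3% of all genes with a count, and for 9 in CMC libraries, where it held for 33.0%. Between the genotypes 2 of 10 did not overlap in each, Hsp68 and Hsp70Bc, near the 20.4 and 17.6% of all genes.

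In Exp 1, a large part of the terminations of Hsp70Ba and Hsp70Bb lay at the 5′ end. The first 100 bases of the span held 58.8, 59.9 and 68.5% of the Hsp70Ba terminations in the 3 samples of Exp 1, and 12.2, 7.41, 3.33 and 7.94% in w1118 of Exp 2. For Hsp70Bb the shares were 66.1, 64.6 and 70.6% against 9.09, 6.12, 7.58 and 5.68%. The RluA-2 samples lay with w1118 of Exp 2, at 6.76 to 9.63% for Hsp70Ba and 5.26 to 20.0% for Hsp70Bb, where 36 to 84 terminations lie behind each Hsp70Bb value.

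Few genes had such a shift. Among 8957 genes with at least 100 terminations in w1118 of each experiment, the median share in the first 100 bases was 1.87% in Exp 1 and 2.00% in Exp 2. Ordered by the difference between the experiments, Hsp70Bb came first, with 59.9 percentage points, Hsp70Ba came next with 54.3, Hsp70Ab was number 4 with 17.8 (32.3 against 14.5%), and Hsp68 number 55 with 7.80 (10.9 against 3.13%). Hsp70Aa stood at 2.37 points, and Hsp70Bc, Hsp70Bbb and Hsp83 had no termination in the first 100 bases in any pair. The share of 1 copy also depends on where inserts that match several copies were placed, which is not known here. Hsp70Bb had no terminations in 17 of its 24 bins, which raises the share of its first bin. This window was chosen after the profiles were seen and these values are a description.

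Read separately, the 2 parts of the copies differed between the experiments by unlike amounts. In the first 100 bases the mean termination CPM was 123 times higher in Exp 1 for Hsp70Bb, 72.4 times for Hsp70Ba, 12.4 times for Hsp70Aa and 10.3 times for Hsp70Ab. Over the rest of the span the same ratio lay between 3.55 and 4.59 for all 5 copies, and it was 4.56 for Hsp70Bbb. For the 5 copies summed the ratios were 41.7 in the first 100 bases and 4.38 over the rest. For Hsp68 the ratios were 4.58 in the first 100 bases and 1.20 over the rest, and for Hsc70-4 0.943 and 0.809.

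**Figure D4:**
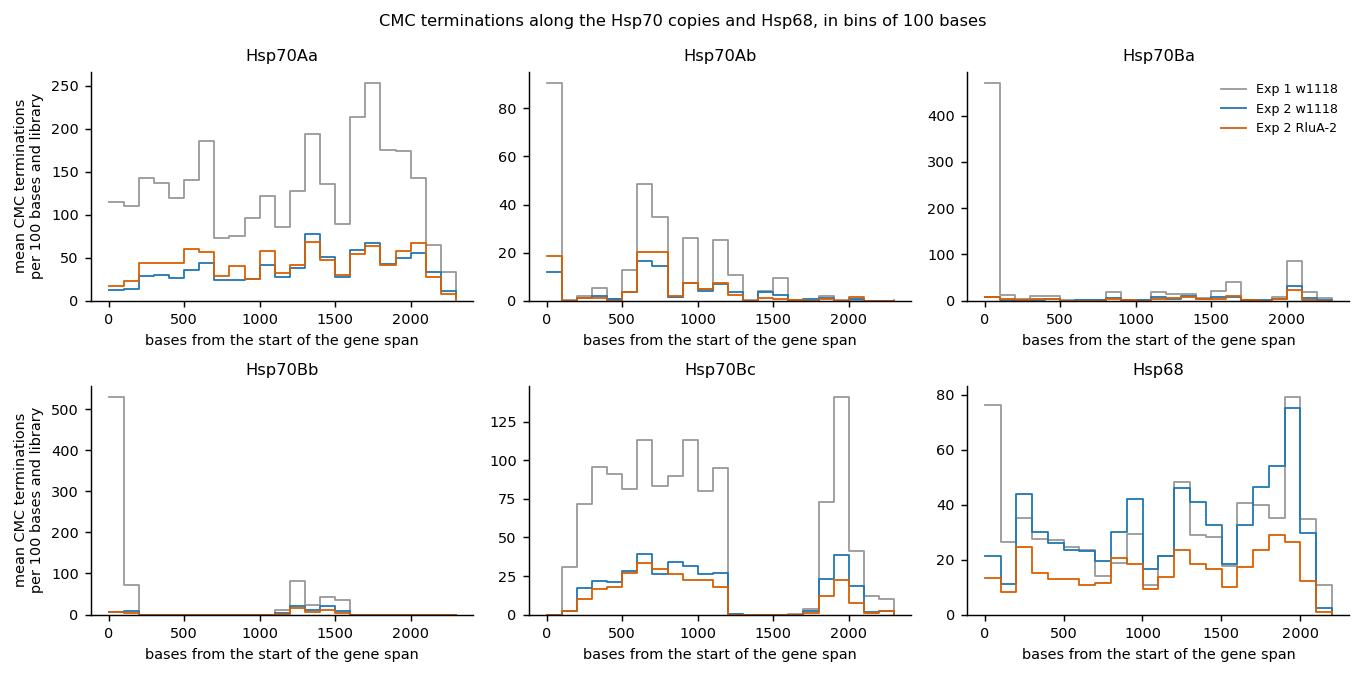
Mean number of CMC terminations per library in bins of 100 bases along the span of the 5 Hsp70 copies and Hsp68, from the start of the span on the left, with a line each for w1118 of Exp 1, w1118 of Exp 2 and RluA-2. In Exp 1 the first bin of Hsp70Ba holds 471 and that of Hsp70Bb 530.3 terminations, while Hsp70Aa has terminations along the whole span in all 3 groups.

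Between the genotypes, the Hsp70 copies depended on RluA-2 replicate 2. The termination CPM of its Hsp70 copies summed was 171, against 62.8, 41.3 and 49.3 in the other 3 RluA-2 samples and 72.5 to 106 in w1118 of Exp 2. Without it the RluA-2 samples lay below all w1118 samples, and with it the ranges overlapped. With all samples the log2 fold change of the sum was -0.12 ± 0.32 (SE, adjusted p = 0.857), without replicate 2 it was -0.78 ± 0.14 (SE, adjusted p = 0.00104), and without any other sample of Exp 2 it lay between -0.20 and 0.10 and was not called.

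The mock library of that replicate was high too. It had a CPM of 2.46 for the Hsp70 copies summed, against 0.682, 0.674 and 1.22 in the other RluA-2 libraries. Its mean scaled coverage at the 15 shared positions of Hsp70Aa was 5.92, against 1.40 to 2.25. In mock counts the log2 fold change of the sum was -0.37 ± 0.43 (SE, adjusted p = 0.599). Hsp68, at 16.2 CPM in that mock library, was within the range of its group.

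Single copies gave 1 call in terminations, Hsp70Bb, which fell by 0.78 (SE 0.21, adjusted p = 0.0166) from 4.77 ± 0.49 to 2.75 ± 1.18 termination CPM (SD, n = 4). Its ranges overlapped (4.17 to 5.29 and 1.96 to 4.50), and the call was lost without RluA-2 replicate 3 (adjusted p = 0.0531) or 4 (adjusted p = 0.0547). Hsp70Ba stood at -0.55 (adjusted p = 0.0826), Hsp70Bc at -0.52 (adjusted p = 0.13), Hsp70Aa at 0.10 (adjusted p = 0.896) and Hsp70Ab at 0.08 (adjusted p = 0.922). Without RluA-2 replicate 2 all 4 were negative and called, from -0.68 for Hsp70Aa (adjusted p = 0.0157) to -0.95 for Hsp70Bc (adjusted p = 2.65e-05).

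In gene counts, Hsp70Bc did not pass the filter on low counts between the genotypes. Its mock CPM was 0.847, 0.732, 0.415 and 0.364 in w1118, from 5 to 26 inserts, and 0.136, 0.246, 0.144 and 0.153 in RluA-2, from 3 inserts in each library. The groups did not overlap, there or in CMC libraries (0.251 to 0.663 against 0.101 to 0.234). With no filter Hsp70Bc was called in mock libraries, with a log2 fold change of -1.85 ± 0.42 (SE, adjusted p = 0.00455, edgeR; by DESeq2 adjusted p = 0.0216), and in CMC libraries, with -1.42 ± 0.45 (SE, adjusted p = 0.0335), where DESeq2 did not call it (adjusted p = 0.101). Hsp70Ab, the copy with the most counts, was tested and stood at 0.18 ± 0.48 (SE, adjusted p = 0.841).

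For the members with high counts, CMC and mock libraries differed by small amounts. CMC against mock libraries of the same RNA in the 7 w1118 pairs gave 2 of 7 members called, both higher in CMC, Hsp68 by 0.20 ± 0.06 (SE, adjusted p = 0.0246) and Hsc70-4 by 0.19 ± 0.05 (SE, adjusted p = 0.0131), with 35.9% of 10043 genes called. The Hsp68 call was lost without Exp 1 replicate 1 (adjusted p = 0.0717) or Exp 2 replicate 4 (adjusted p = 0.0626). Within Exp 1 alone no p for these 2 passed (adjusted p = 0.113 and 0.056), with 0.27 and 0.28 as the log2 fold changes, and within Exp 2 alone both passed, with 0.15 (adjusted p = 0.0199) and 0.12 (adjusted p = 0.00423).

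The summed counts of the Hsp70 copies were higher with CMC in Exp 1. The Hsp70 copies summed had 12.1 to 17.3 CPM in CMC and 9.28 to 9.58 in mock libraries of Exp 1, with no overlap. Within these 3 pairs Hsp70Bb, with a mean of 3.42 against 1.33 CPM, rose by 1.34 ± 0.25 (SE, adjusted p = 0.0131), and Hsp70Bc, with 2.82 against 1.49, by 0.90 ± 0.21 (SE, adjusted p = 0.0261). In the Exp 2 pairs of w1118 Hsp70Bc stood at -0.34 ± 0.29 (SE, adjusted p = 0.412). Over all 7 w1118 pairs with no filter Hsp70Bb was called as well, at 1.28 ± 0.25 (SE, adjusted p = 0.000938, and by DESeq2 adjusted p = 0.013), with 3 of 10 members and 22.7% of genes called. In the Exp 2 pairs of w1118 Hsp70Bb had 2, 8, 1 and 1 inserts in CMC and 5, 1, 0 and 1 in mock libraries. Its value over all 7 pairs thus rests mostly on Exp 1.

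In the 4 RluA-2 pairs Hsp68 rose by 0.20 ± 0.07 (SE, adjusted p = 0.0234) and Hsc70-3 by 0.09 ± 0.04 (SE, adjusted p = 0.0487), with 32.5% of 10053 genes called. The Hsc70-3 call was lost whichever pair was left out (adjusted p between 0.091 and 0.136), and by DESeq2 (adjusted p = 0.105), and the Hsp68 call without replicate 2 (adjusted p = 0.0924) or 3 (adjusted p = 0.167) and by DESeq2 (adjusted p = 0.218). The change with CMC was not found to differ between the genotypes for any of 7 members, with standard errors of 0.04 to 0.54, nor for any of the 10344 genes (0% called by edgeR, 311 at an unadjusted p under 0.05, and 0 called by DESeq2).

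Positions with more terminations in CMC libraries were called on Hsc70-4 and Hsp83 with the main variance, which is the stricter, and on further members with a pooled one. A position was called in a pair where its termination ratio, the terminating share of the coverage, was higher in the CMC than in the mock library with an adjusted p under 0.05 in a one-sided comparison of proportions, which sets the reads of 2 libraries against each other and not the conditions. This gave 17 calls over 10 positions of Hsc70-4 and 1 call on Hsp83, at base 2238 of its span. Over all positions tested, 4433 of 391038 were called in Exp 1 replicate 2 and 1370 of 490054 in w1118 replicate 3 of Exp 2. These include positions of rRNA and of the spike-in, a control RNA added to each sample. In the same pairs Hsc70-4 had 3 of 1051 and 0 of 1399 called, and in every pair its called share was below that of all positions. A share over mRNA positions alone was not computed. Testable positions were those with enough reads and a higher ratio in the CMC library. Their number followed the level of the gene, from 1051 to 1688 per pair for Hsc70-4 and 644 to 1124 for Hsp83 down to 0 to 25 for Hsp68 and 0 to 15 for Hsp70Ab. Hsp70Aa had 1 to 245. With a pooled variance in the same comparison, sites called in both experiments numbered 580 on Hsc70-4, 267 on Hsp83, 103 on Hsc70-3, 80 on Hsc70-5, 12 on Hsp70Aa and 3 on Hsp68, in place of 1 in all. The lack of calls on these members thus followed the variance used as well as their depth. Over all positions, rRNA and spike-in included, the pooled variance called 199909 of 391038 in Exp 1 replicate 2 and 39439 of 490054 in w1118 replicate 3 of Exp 2.

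With the main variance a single position, Hsc70-4 base 2912 (15245598 on 3R), was called in w1118 of both experiments. Its termination ratio was 14.9, 14.0 and 15.6% in the CMC libraries of Exp 1 and 3.09, 4.48 and 2.27% in their mock libraries, and in w1118 of Exp 2 it was 10.1, 8.63, 5.45 and 6.85% with CMC and 2.82, 2.27, 2.22 and 2.82% without. Replicates 1 and 3 of Exp 1 (adjusted p = 0.00737 and 0.0058) and replicate 1 of Exp 2 passed. In RluA-2 the CMC ratios were 9.08, 6.95, 8.63 and 8.14% and the mock ratios 2.22, 2.70, 2.79 and 3.88%, within or near the range of w1118 in Exp 2, and no RluA-2 pair was called. The CMC ratio was above the mock ratio in all 11 pairs, at coverages of 724 to 1856 in CMC libraries. The base at this position is not known here, so it is a termination site and not shown to be a pseudouridine.

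Other positions of Hsc70-4 had larger changes without being called in both experiments. At base 3603 the mean log2 fold change of the termination ratio was 4.13 in Exp 1, 3.56 in w1118 of Exp 2 and 3.77 in RluA-2, with calls in 2 pairs of Exp 1. Base 3056 stood at 2.65, 2.64 and 2.40, with calls in 2 w1118 and 2 RluA-2 pairs of Exp 2.

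For a comparison of the genotypes, 1 position per member was taken as that with the highest mean fold change in Exp 1 among positions with a coverage of at least 100 in every library, which left Hsc70-3, Hsc70-4, Hsc70-5 and Hsp83. None of the 4 differed between RluA-2 and w1118 of Exp 2 by an exact two-sided permutation test, for which 4 against 4 samples allow no p under 0.0286. On Hsp83 (base 2665) the log2 fold change was 1.37 ± 0.77 in w1118 and 1.87 ± 0.65 in RluA-2 (SD, n = 4 each, exact p = 0.371, adjusted over the 4 positions p = 0.571). On Hsc70-4 (base 3282) it was 1.69 ± 0.56 and 1.99 ± 0.46 (exact p = 0.429, adjusted p = 0.571), on Hsc70-5 (base 2628) 2.61 ± 0.67 and 1.92 ± 1.12 (exact p = 0.314, adjusted p = 0.571), and on Hsc70-3 (base 5223) 1.37 ± 1.63 and 1.36 ± 0.84 (exact p = 1). All 4 overlapped between the genotypes.

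Co-chaperones and other stress genes were read by CMC terminations, since few identifiers of the count tables could be paired with a symbol. Small heat shock proteins, which hold unfolded proteins for the Hsp70 machinery, fell from Exp 1 to Exp 2 in 6 of 8 genes tested, with a median log2 change of -0.53 against -0.00062 over all genes, of which 2285 rose and 2037 fell of 10192. Hsp26 fell by 1.38 (adjusted p = 3.8e-06), from 70.2 ± 11.7 to 27.2 ± 1.55 termination CPM, Hsp27 by 1.06, Hsp23 by 0.88 and Hsp67Bc by 0.62. Hsp22, CG4456, CG7409 and CG13133 had no terminations in any pair.

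The helpers of Hsp70 and Hsp90 also had more calls downwards than upwards between the experiments. Of 11 Hsp70 co-chaperones 4 fell and 1 rose, stv, a BAG-domain exchange factor, by 0.73 (adjusted p = 4e-05), HIP by 0.75, and the J-domain genes jdp by 0.60 and DnaJ-1 by 0.53, while Droj2, a further J-domain gene, rose by 0.34. Of 9 Hsp90 co-chaperones 5 fell and none rose, Sgt by 0.59, mora by 0.49, p23 by 0.42, CG1416 by 0.28 and Cdc37, which delivers kinases to Hsp90, by 0.25. Of 3 other Hsp70 genes Hsc70-1 and Hsp110 fell, by 0.62 and 0.22, and the heat shock factor gene itself stood at -0.15 and was not called.

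Chaperones of the organelles had more calls upwards than downwards, at an upward share near that of all genes. Of all 10192 genes tested, 2285 rose and 2037 fell. Of 14 genes of folding in the endoplasmic reticulum 4 rose and 1 fell, with the disulphide isomerase Pdi up by 0.47, Calr by 0.33, Ire1 by 0.32 and Herp by 0.32, and the lectin chaperone Cnx99A down by 0.27. Of 6 mitochondrial genes Hsp60A rose by 0.52, and Trap1, the mitochondrial Hsp90 and 1 of 2 other Hsp90 genes, rose by 0.32. Of 5 other stress genes TotC and TotA rose, by 0.63 and 0.50, and Thor fell by 0.41.

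Markers of other cells moved between the experiments as well. The 5 muscle markers fell, from a sum of 18424 to 18823 termination CPM in Exp 1 to 12177 to 12705 in w1118 of Exp 2, the 5 neuronal ones fell (3306 to 4246 and 2574 to 3051), the 4 glial ones rose (1248 to 1458 and 1748 to 1959), and 2 of 3 haemocyte markers rose, Hml by 2.13 and Ppn by 1.91, with a sum of 151 to 226 and 716 to 784. In the fat body Lsp2 and fit rose, by 1.97 and 0.58, of 5 tested, among photoreceptors trp and ninaC fell, by 0.49 and 0.35, of 5, and the germ line gene vas fell by 0.24. Their part in the change of the Hsp70 copies was not tested, and what differs between the experiments beside it cannot be told apart.

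The same lists held fewer calls between the genotypes, where 903 genes rose and 1198 fell of 10191 tested. The w1118 samples of Exp 2 serve in both comparisons. No gene was called among 9 Hsp90 co-chaperones, 3 other Hsp70 genes and the heat shock factor gene, and 1 of 11 Hsp70 co-chaperones, jdp, fell by 0.20. Of 8 small heat shock proteins 2 rose and none fell, CG4461 by 1.16 ± 0.08 (SE, adjusted p = 7.28e-08), from 42.3 ± 3.85 to 93.6 ± 9.21 termination CPM, and Hsp23 by 0.28.

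In the endoplasmic reticulum list 4 of 14 fell, Pdi by 0.28, ERp60 by 0.25, Xbp1 by 0.19 and prtp by 0.19, and Herp rose by 0.35, with Gp93, the Hsp90 of that compartment, down by 0.27 (adjusted p = 0.00371). Of 6 mitochondrial genes ClpX rose by 0.17. Of 5 other stress genes 3 fell, the Turandot genes TotC by 1.23 and TotA by 0.71 and the glutathione transferase GstD2 by 0.82, and Thor, a translation inhibitor, rose by 0.47. Of the cell markers none was called among photoreceptors, neurons and muscle, and Lsp2 (down by 1.55) and fit (down by 0.41) were called of 5 in the fat body, whose sum was 59975 to 68449 termination CPM in w1118 and 63684 to 80571 in RluA-2. vas, the germ line gene tested, was not called. Among glia Gs2 and moody fell by 0.25 and 0.21 and repo rose by 0.17, and among haemocytes NimC1 rose by 0.69 and Ppn fell by 0.18. Their part in the level of Hsp68 was not tested.

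Genes with the most similar course over the 11 CMC libraries were taken by Pearson's r of log2 termination CPM among 10065 genes, as a description, since the libraries share experiment and genotype. For the 5 Hsp70 copies summed they were the sixth copy Hsp70Bbb (r = 0.974), the small heat shock protein gene Hsp26 (0.966) and CG13404 (0.966), and for Hsp68 Pop4 (0.990), CG9577 (0.981) and CG30082 (0.981). For Hsp83 they were Cnot4 (0.922), Polr1D (0.922) and Pzl (0.915), for Hsc70-3 bark (0.928), shi (0.915) and Gbeta13F (0.895), and for Hsc70-4 et (0.982), CG17739 (0.980) and HDAC6 (0.976). Over the 11 mock libraries the 3 closest genes of each had r between 0.848 and 0.987, and their identifiers could not be paired with symbols here.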

How the data were processed

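Experiment, genotype, treatment and replicate of the 22 libraries, CMC and mock from each of 11 RNA samples, were taken from the labels. The authors trimmed reads (Trimmomatic 0.33) and mapped them first to rRNA and spike-in sequences (bowtie2). They aligned the remaining reads to genome release 6 (STAR 2.6.1a) and counted uniquely mapped sense pairs with featureCounts 2.0.0. The deposited gene counts are thus raw and leave out inserts that match several genes. The deposited termination files give, per position, the count of terminating inserts plus 1 and the coverage, where the CMC library has a termination. The termination ratio, a fraction, was recomputed from these deposited counts.

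Gene counts and CMC terminations per gene span (genes named by symbol through a RefSeq table of release 6) were tested with edgeR 4.0.16 (TMM, filterByExpr, quasi-likelihood, Benjamini-Hochberg over all genes, called under 0.05), with the RNA sample as a block for CMC against mock. The standard error is the log2 fold change over the root of F. DESeq2 1.42.0, other normalizations, no filter, summed Hsp70 copies and each replicate left out were alternatives. Positions needed 5 CMC reads terminating, by the deposited count that includes the added 1, and 5 continuing. Only positions with a higher ratio in the CMC than in the mock library were tested and entered the adjustment. Positions of rRNA and the spike-in were among them. The comparison of proportions was a normal approximation on reads. Its formula as printed subtracts the coverage terms and can have no root, so the main variance was p(1 - p) over the CMC coverage plus the inverse of the mock coverage, with p the pooled proportion, and the usual pooled variance, which is smaller, was the alternative. Which of them the authors used was not checked here. The tests were tried on simulated data. CPM was computed from all gene counts of a library and termination CPM from its terminations on the genome.

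The members and lists were chosen with earlier results of these data known. Of 103 list genes, 96 were matched. The named genes were the 10 members, the deleted gene, up to 4 called genes per list with the lowest adjusted p, and the 3 genes closest to each of 5 levels. The lists were planned on mock gene counts, but only 226 symbols could be paired with an identifier, so CMC terminations were used. DnaJ-1, CG1416, prtp and Cnx99A, outside this rule, are named after their values were seen. The termination fits, the CMC fit between experiments and the share in the first 100 bases were added after seeing the data. Scripts ran in R 4.3.3 and Python 3.11, with SciPy 1.17.1 and NumPy 2.4.6 for tests, pandas 2.3.3 for tables and matplotlib 3.10.9 for plots.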

Additional observations from a re-analysis of the deposited data

Results flagged for a closer look

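In 66 groups of 4 samples of a member's level, 10 had a sample far from the others, where chance gives about 1 in 20 independent groups. These groups are not independent, since the same RNA enters by several measures and the Hsp70 copies enter again as a sum. The number flagged is thus no measure of an excess over chance. Of the 10, 5 concern RluA-2 replicate 2. In termination CPM that replicate stood at 11.7 for Hsp70Ab (2.46 to 3.17 in the others), 4.50 for Hsp70Bb (1.96 to 2.35), 26.5 for Hsp70Bc (9.28 to 12.2) and 171 for the 5 Hsp70 copies summed (41.3 to 62.8), and in mock CPM at 0.246 for Hsp70Bc (0.136 to 0.153), where each value rests on 3 inserts.

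Replicate 2 of w1118 in Exp 2 was high for Hsp83 by each measure, with 662 CPM in mock libraries (469 to 493 in the others), 674 CPM in CMC libraries (514 to 528) and 685 termination CPM (515 to 535). The 2 remaining cases rest on 2 inserts each, Hsp70Ba at 0.0651 mock CPM in w1118 replicate 1 of Exp 2 and Hsp70Bb at 0.0909 in RluA-2 replicate 1, with 0 in the other libraries of the group.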

How the results depend on the processing

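The replicate numbers do not pair the genotypes. The deviations of a library's log2 CPM from the mean of its genotype were correlated over genes between the genotypes. For libraries with the same number this r lay between -0.05 and 0.04, and no library was closest to its own number. With the number as a replicate block, RluA-2 against w1118 gave 2319 calls in place of 2409 in mock and 2114 in place of 2117 in CMC libraries, and Hsc70-3 in mock libraries passed (adjusted p = 0.0326).

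Counts of calls changed under several alternatives, some by large amounts. CMC against mock in w1118 gave 3604 calls and 1270 with no replicate block, and 2325 to 3369 with a pair left out, 2325 without Exp 1 replicate 1. In RluA-2 it gave 3272, 1628 by DESeq2, 1362 with no replicate block, and 2370 to 2751 with a pair left out. The treatment difference between genotypes gave 39 with no filter on low counts and 0 to 9 with a pair left out. Sites on members numbered 1, 1045 with a pooled variance, 4 with 10 reads as the minimum, 0 at an adjusted p under 0.01, and 0 to 1 with a pair left out, 0 without w1118 replicate 1 of Exp 2. Leaving out a library gave 2021 to 2254 mock and 1737 to 2016 CMC calls between genotypes, 2435 to 3928 and 3339 to 4262 between experiments, and 1769 to 1994 and 3418 to 4365 in terminations. With library totals in place of TMM, the mock genotype calls were 872 up and 1609 down, against 1127 and 1282, and the experiment calls 2153 and 1287, against 1790 and 1576.

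At the chosen positions the difference of Hsc70-5 was 0.30 with a coverage minimum of 20 and that of Hsc70-3 0.0036 with a pseudocount. With a pair left out, the ranges were -0.61 to 0.69 for Hsc70-3, -0.50 to 0.55 for Hsc70-4, -1.19 to -0.19 for Hsc70-5 and -0.64 to 0.88 for Hsp83.

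Sign changes of members were confined to values that passed no test in the full data. Hsp70Ab between genotypes ranged from -0.29 to 0.56 in mock counts, -0.66 to 0.70 in CMC counts and -0.76 to 0.31 in terminations with a library left out (-0.08 and -0.07 without w1118 replicate 4 or 3 in counts, -0.02 and -0.0087 in terminations), and Hsp70Aa in terminations from -0.68 to 0.34 (-0.0014 without w1118 replicate 3). With CMC, Hsp70Ab in RluA-2 stood at -0.053 by DESeq2 and -0.21 to 0.34 with a pair left out (-0.18 without replicate 2), Hsp70Bc at -0.34 in the Exp 2 pairs and Hsc70-3 at -0.0031 in the Exp 1 pairs. Hsc70-3 between experiments ranged from -0.11 to 0.018 in CMC counts (0.01 without Exp 2 replicate 4) and from -0.090 to 0.035 in terminations (0.02 and 0.03 without Exp 1 replicate 2 and Exp 2 replicate 4). The cause was not tested.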
